A study of Mus musculus with 10 samples.

Results

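*Ache*, *Bche*, *Colq* and *Prima1* encode the 2 cholinesterases of the mouse and the 2 proteins that anchor them, and their RNA was followed in dorsal root ganglia (DRG) at E18.5, with and without *Dach1* in the neural crest. The genes were chosen by name, as the rows of the count tables whose Ensembl identifier carries one of these symbols. All 4 were found among the 55414 genes listed, and all 4 passed the filter on low counts that left 17490 genes for testing. DRG are the paired ganglia beside the spinal cord that hold the cell bodies of somatosensory neurons together with their glia. RNA of 5 control and 5 *WD1* cKO samples was sequenced in bulk.

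*WD1* cKO embryos were Wnt1Cre/+ and Dach1 flox/flox, and controls were littermates that were Wnt1+/+ and likewise Dach1 flox/flox, so that all embryos carried the floxed allele and only the *WD1* cKO embryos carried Cre. The *Wnt1* promoter places Cre in the neural crest, from which both the neurons and the glia of the DRG derive, and Cre removes one exon of *Dach1*, a transcriptional regulator. In the labels the genotypes are attached to the opposite titles, so libraries were grouped by title. *Dach1* fell from 37.9 ± 2.40 CPM (SD, n = 5) in the libraries titled control to 20.02 ± 0.677 CPM (SD, n = 5) in those titled *WD1* cKO, a change of -0.92 on the log2 scale (standard error 0.0504). CPM are read counts scaled to a fixed number of reads assigned to genes, after TMM scaling between libraries. By immunostaining, the study reported that Dach1 protein was lost from *WD1* cKO DRG by E18.5. The *Dach1* RNA left here is therefore not a measure of the protein left.

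Acetylcholinesterase, the product of *Ache*, ends cholinergic transmission by splitting acetylcholine in the synaptic cleft. Butyrylcholinesterase, the product of *Bche*, is its close relative and accepts a wider range of choline esters. Both enzymes assemble into tetramers that are held in place by a partner. The collagen-like tail ColQ tethers them to the synaptic basal lamina, above all at the neuromuscular junction, whereas PRiMA, the product of *Prima1*, is a transmembrane protein that anchors them at the surface of neurons. In DRG of adult mice, the study used *Colq* to mark the A-delta low-threshold mechanoreceptors (LTMR), which innervate hair follicles, and whether it marks the same neurons at E18.5 was not tested here.

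The start regions of the members are shown because they differ widely in base composition, with no claim that this bears on their levels. The sequences are the 300 bases from 250 before to 50 after the annotated start, taken from RefSeq on GRCm38.p6 and written in the direction of the gene, with every GC box (GGGCGG on either strand, overlapping matches counted) in capitals. That of *Ache* lies at chr5:137288004-137288303 on the plus strand, that of *Bche* at chr3:73708366-73708665 on the minus strand and that of *Prima1* at chr12:103242097-103242396 on the minus strand. *Colq* was not matched in the promoter table.

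Ache: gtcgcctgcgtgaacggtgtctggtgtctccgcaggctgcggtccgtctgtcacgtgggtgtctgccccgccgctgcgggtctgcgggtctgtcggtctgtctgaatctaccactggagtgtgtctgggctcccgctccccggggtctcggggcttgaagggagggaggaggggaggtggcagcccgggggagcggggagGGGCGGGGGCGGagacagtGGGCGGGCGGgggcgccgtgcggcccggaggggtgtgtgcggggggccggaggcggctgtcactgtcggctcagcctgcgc

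Bche: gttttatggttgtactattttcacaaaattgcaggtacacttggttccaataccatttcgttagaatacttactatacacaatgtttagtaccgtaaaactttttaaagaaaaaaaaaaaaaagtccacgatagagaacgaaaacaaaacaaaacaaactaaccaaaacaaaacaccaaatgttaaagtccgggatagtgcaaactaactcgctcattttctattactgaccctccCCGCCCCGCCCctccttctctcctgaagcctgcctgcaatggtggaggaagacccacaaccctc

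Prima1: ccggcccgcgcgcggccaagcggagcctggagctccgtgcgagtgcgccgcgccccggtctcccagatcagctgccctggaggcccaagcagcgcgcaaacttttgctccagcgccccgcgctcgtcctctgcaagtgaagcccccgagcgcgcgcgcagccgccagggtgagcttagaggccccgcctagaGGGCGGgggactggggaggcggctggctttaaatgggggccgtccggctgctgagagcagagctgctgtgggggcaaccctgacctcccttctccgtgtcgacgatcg

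The *Ache* promoter had a GC content of 74.0%, 30 CpG pairs and 4 GC boxes. That of *Prima1* was similar in composition, with a GC content of 71.7% and 33 CpG pairs, but held 1 GC box. The *Bche* promoter was AT-rich, with a GC content of 39.3% and 8 CpG pairs, and its 2 GC boxes overlapped at one base shortly before the start. Over all 32851 promoters of the same length the median GC content was 52.7% with 7 CpG pairs, and 35.7% held at least 1 GC box. A match to these letters is a description of the sequence and does not show that a factor binds there.

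The 4 members formed a steep order of levels that was the same in each of the 10 libraries. Per kb of exon in the GENCODE annotation of GRCm38, *Ache* stood at 37.1 ± 3.76 CPM per kb (SD, n = 5) in control embryos, *Bche* at 8.66 ± 0.686, *Prima1* at 5.21 ± 0.354 and *Colq* at 0.386 ± 0.233. The corresponding levels in *WD1* cKO embryos were 36.5 ± 2.57, 8.31 ± 0.436, 4.96 ± 0.313 and 0.212 ± 0.0970 CPM per kb (SD, n = 5). No pair of neighbours in this order overlapped over the 10 libraries. *Ache* never fell below 32.9 CPM per kb and *Bche* never rose above 9.15, while *Bche* stayed at or above 7.48 and *Prima1* at or below 5.77. The highest value of *Colq* was 0.729 CPM per kb, and the lowest of *Prima1* was 4.71. These levels use the length of all annotated exons of a gene, 4623 bases for *Ache*, 6741 for *Bche*, 3803 for *Colq* and 1253 for *Prima1*, so a short isoform would be placed too low.

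The balance between the enzymes and their anchors can be read as ratios of these levels within a library. *Ache* was 3.60 to 5.01 times as high as *Bche* in control embryos and 4.13 to 4.82 times as high in *WD1* cKO embryos. Relative to the membrane anchor *Prima1*, *Ache* was 5.84 to 8.19 times as high in control and 6.73 to 8.31 times as high in *WD1* cKO embryos. The ranges of both ratios overlapped between the groups. *Prima1* exceeded the collagen tail *Colq* 6.70 to 33.2 times in control and 14.4 to 62.7 times in *WD1* cKO embryos. In these ganglia the transmembrane anchor was therefore the more abundant of the 2 anchor RNAs in every library.

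**Figure D1:**
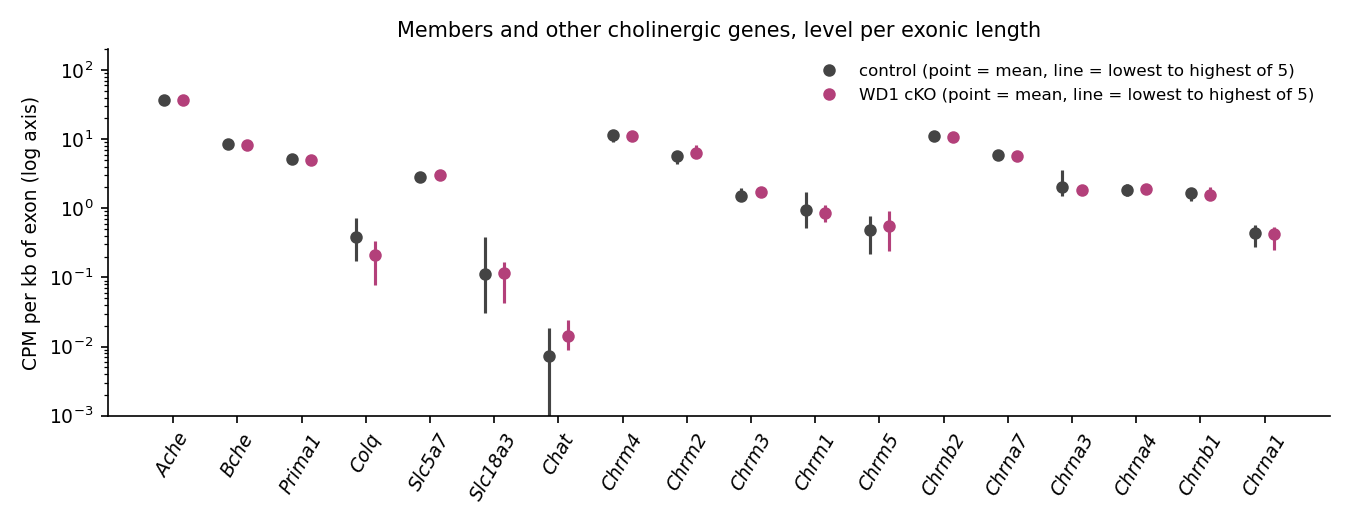
Level per kb of exon on a log axis for the 4 members and for 14 genes of acetylcholine synthesis, storage, uptake and reception, with the mean (point) and the lowest to highest of 5 libraries (line) in control (grey) and *WD1* cKO (magenta) embryos. *Ache* has the highest point of the genes shown and *Chat*, whose line runs to the axis floor because it was at 0 in 2 control libraries, the lowest.

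To determine whether loss of *Dach1* changed the cholinesterase system, edgeR's quasi-likelihood test was fitted on all 17490 genes and read for the 4 members. None of them passed. All 4 fitted log2 fold changes were negative, with a median of -0.065, beside a median of 0.00022 over all genes tested, of which 8719 were negative and 8771 positive. At a Benjamini-Hochberg adjusted p under 0.05, 0 of the 4 members were called, beside 7 genes of all tested (0.0400%), 6 lower and 1 higher in *WD1* cKO. At an unadjusted p under 0.05, 0 of the 4 members were called in edgeR and 0 in DESeq2, and in edgeR 787 genes (4.50%) passed. The cut-off that the study used was an unadjusted p under 0.005 and a log2 fold change beyond 0.15 in size. In the present edgeR fit 67 genes (0.383%) and none of the members passed it. The study itself used DESeq2, which gave 78 genes at this cut-off when run here. Both counts are higher than the count that the study reported, and the source of the gap was not tested. Groups did not overlap for 186 genes (1.06%) and overlapped for every member.

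**Figure D2:**
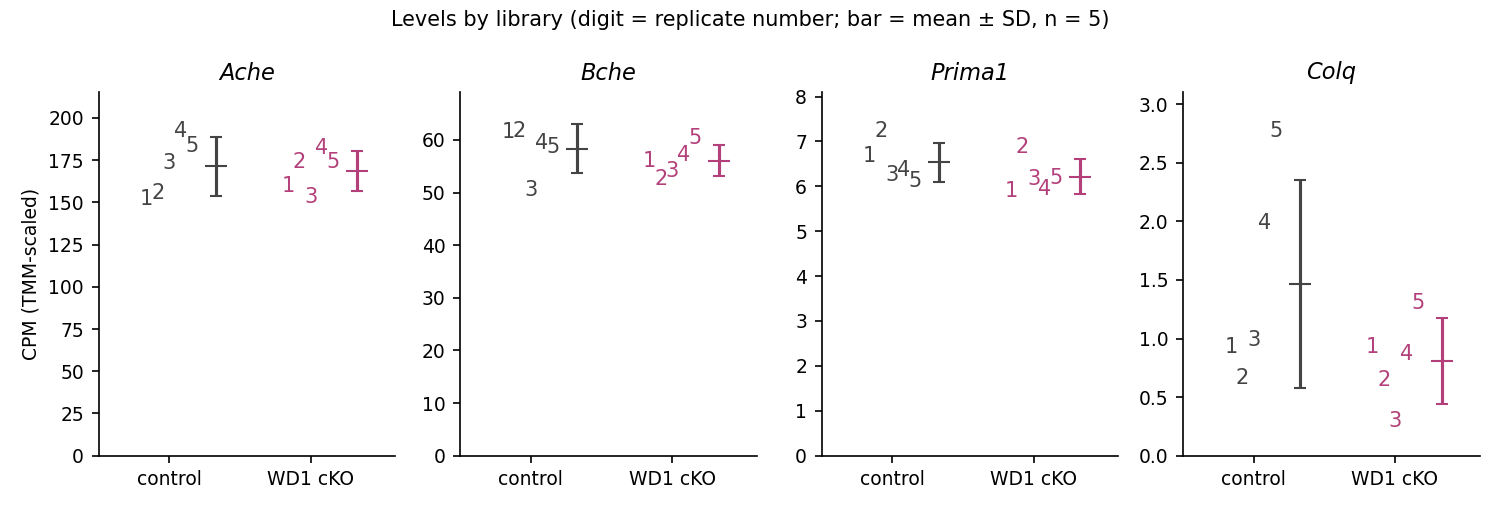
Level of each member in TMM-scaled CPM on axes that start at 0, where each digit is a library named by its replicate number and the bar is the mean ± SD of 5 control (grey) or 5 *WD1* cKO (magenta) libraries. The groups overlap in all 4 panels, and the spread relative to the mean is widest for *Colq*.

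*Ache* (ENSMUSG00000023328, plus strand of chromosome 5), the gene of the main acetylcholine-splitting enzyme, was the most abundant member. Its level was 152, 156, 173, 192 and 184 CPM in control replicates 1 to 5. In *WD1* cKO replicates 1 to 5 it was 160, 174, 153, 182 and 174 CPM. Both groups held libraries near 150 and above 180 CPM, and the *WD1* cKO libraries all lay within the range of the controls. The means were 171 ± 17.4 CPM (SD, n = 5) in control and 169 ± 11.9 CPM (SD, n = 5) in *WD1* cKO embryos. On the log2 scale the fitted difference was -0.02 (standard error 0.0689, 95% interval -0.17 to 0.13), with an unadjusted p of 0.734 and an adjusted p of 1.00 in edgeR. The exact permutation test over the libraries gave p = 0.802 (two-sided, smallest possible 0.00794). Between 3119 and 6028 reads per library stood behind these values, so counting error was small relative to the spread between libraries. *Ache* shares its span with *Gm42456*, a non-coding gene on the opposite strand counted 0 to 2 times, and with *Mir8116*, counted 3 to 8 times.

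*Bche* (ENSMUSG00000027792, minus strand of chromosome 3), the gene of the broader cholinesterase, varied less. The control replicates 1 to 5 had 61.6, 61.7, 50.4, 59.3 and 58.7 CPM. The *WD1* cKO replicates 1 to 5 had 56.0, 52.7, 54.0, 57.1 and 60.3 CPM. The other 4 control libraries were close together near 60 CPM, and control replicate 3 lay below every other library of either group. Mean levels were 58.3 ± 4.62 CPM (SD, n = 5) in control and 56.0 ± 2.94 CPM (SD, n = 5) in *WD1* cKO embryos. On the log2 scale the fitted difference was -0.06 (standard error 0.0572, 95% interval -0.18 to 0.07), with an unadjusted p of 0.323 and an adjusted p of 1.00 in edgeR, and the exact permutation test gave p = 0.381. Without control replicate 3 the log2 fold change was -0.11, with an unadjusted p of 0.0316 and an adjusted p no lower than 0.944 in any fit that left out a library. That library stood apart in its tissue composition as well. Its connective tissue genes summed to 5835 CPM against 4191 to 4533 CPM in the other controls, and its spinal cord genes to 11.96 CPM against 0.110 to 0.484 CPM.

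*Prima1* (ENSMUSG00000041669, minus strand of chromosome 12), the gene of the neuronal membrane anchor, was a low but steady RNA. Its level was 6.68, 7.23, 6.26, 6.37 and 6.11 CPM in control replicates 1 to 5. It was 5.90, 6.88, 6.16, 5.95 and 6.18 CPM in *WD1* cKO replicates 1 to 5. Replicate 2 was the highest library of both groups, and the ranges overlapped over most of their length. The means were 6.53 ± 0.444 CPM (SD, n = 5) and 6.21 ± 0.393 CPM (SD, n = 5). The log2 fold change was -0.07 (standard error 0.0759, 95% interval -0.24 to 0.09), with an unadjusted p of 0.367 and an adjusted p of 1.00 in edgeR, and the exact permutation test gave p = 0.246. The counts ran from 117 to 214 reads per library. For *Ache*, *Bche* and *Prima1* the lower bound of the interval was -0.24 or closer to 0.

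*Colq* (ENSMUSG00000057606, minus strand of chromosome 14, the chromosome of *Dach1*), the gene of the collagen tail and the study's A-delta LTMR marker, had the fewest reads of the members. Control replicates 1 to 5 held 19, 15, 21, 54 and 63 of its reads, which gave 0.927, 0.662, 0.989, 1.99 and 2.77 CPM. *WD1* cKO replicates 1 to 5 held 22, 17, 9, 17 and 45 reads, which gave 0.927, 0.646, 0.298, 0.864 and 1.30 CPM. Control replicates 4 and 5 were above all other libraries, whereas control replicates 1 to 3 lay within the range of the *WD1* cKO libraries. The mean was 1.47 ± 0.886 CPM (SD, n = 5) in control and 0.807 ± 0.369 CPM (SD, n = 5) in *WD1* cKO embryos. On the log2 scale the fitted difference was -0.87 (standard error 0.425, 95% interval -1.79 to 0.06), with an unadjusted p of 0.0639 and an adjusted p of 1.00 in edgeR, and the exact permutation test gave p = 0.151. The fitted difference was thus by far the largest of the 4 members and also the least certain. Its interval reached from a strong decrease to a slight increase. DESeq2 gave a log2 fold change of -0.87 with an unadjusted p of 0.0522.

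The size of the *Colq* difference depended on single libraries. Over replicate numbers 1 to 3 the mean level was 0.859 CPM in control and 0.624 CPM in *WD1* cKO embryos, and over numbers 4 and 5 it was 2.38 and 1.08 CPM. The labels do not say what the numbers mark. Blood genes were also lower over numbers 4 and 5, at 134 to 206 CPM against 417 to 2080 CPM over numbers 1 to 3. Over the 10 libraries Pearson's r between *Colq* and the blood level was -0.493 (permutation p = 0.15, adjusted 0.408 over 24 relations). It was -0.917 over the 5 control and -0.321 over the 5 *WD1* cKO libraries, given without a test. After centring on the group means r was -0.692 (permutation p = 0.0295, adjusted 0.142). The part of the split by number in this relation was not tested. With a term for numbers 1 to 3 against 4 and 5 the log2 fold change was -0.79 (unadjusted p of 0.0124, adjusted p of 0.562, edgeR). With that term 1282 of all 17490 genes tested had an unadjusted p under 0.05, against 787 in the main fit. Without control replicate 5 the log2 fold change of *Colq* was -0.52 (unadjusted p of 0.22, edgeR), and without *WD1* cKO replicate 5 it was -1.15 (unadjusted p of 0.0277, edgeR). No fit gave *Colq* an adjusted p under 0.05. *Gm49387*, a gene on the same strand that shares 199 exonic bases with *Colq*, was counted 0 times in all 10 libraries.

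As *Colq* is also expressed by skeletal muscle, the level of 10 muscle genes (*Acta1*, *Myh3*, *Mylpf*, *Myh8* and others) was set beside it. Their summed level spanned 34.6 to 234 CPM in control and 61.3 to 129 CPM in *WD1* cKO embryos. Of the 9 muscle genes tested, 8 had a negative log2 fold change and none passed an unadjusted p under 0.05. *Tnnc2* was at 0 in 4 libraries and *Myog* in 1, and the other 8 were detected in all. Control replicate 5 had the most muscle RNA and the most *Colq*, but control replicate 4 had the least muscle RNA and the second highest *Colq*. Over the 10 libraries Pearson's r between *Colq* and the muscle level was -0.0029 (permutation p = 0.994) and Spearman's rho was 0.030 (permutation p = 0.947). This pooled value stands for unlike groups, since r was 0.128 over the 5 control and -0.917 over the 5 *WD1* cKO libraries, given without a test. The latter was not particular to muscle. With the connective tissue level r of *Colq* was -0.919 over the same 5 *WD1* cKO libraries and -0.345 over the 5 control libraries, also without a test. In *WD1* cKO embryos *Colq* was lowest, at 0.298 CPM, in the library with the most muscle RNA and highest, at 1.30 CPM, in the library with the least. With the muscle level as a covariate the log2 fold change of *Colq* was -0.88 (unadjusted p of 0.0804, edgeR).

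**Figure D3:**
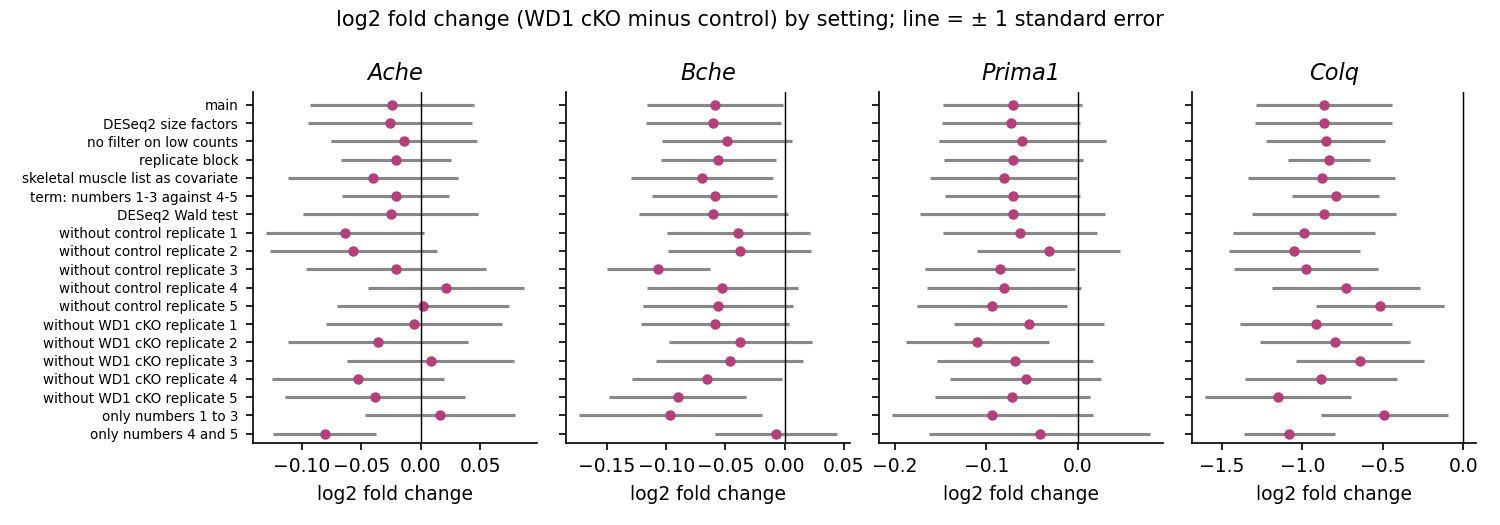
Log2 fold change (*WD1* cKO minus control) of each member under the main setting and 18 others, with a line of ± 1 standard error and a vertical line at 0. *Colq* stays below 0 under every setting shown but between -0.49 and -1.15, whereas *Ache* lies within 0.09 of 0 on both sides.

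A list of 9 genes of A-fibre LTMR in general, most of which are not particular to the A-delta subtype, was set beside *Colq*. Some are not particular to LTMR either. The study also placed *Ret* in pain-sensing neurons and TrkC, the product of *Ntrk3*, in neurons that sense body position. Of the 9 genes, 2 were lower and 3 higher at an unadjusted p under 0.05, beside 417 lower and 370 higher of all genes (4.50% together). Of the list, 1 gene passed the adjusted threshold. That gene was *Calb2*, the calcium-binding protein calretinin, with a log2 fold change of -2.06. The study had already named *Calb2* and *Shox2* as changed in these same data. The count for this list is therefore no independent evidence about A-fibre LTMR genes. *Ntrk2* encodes the neurotrophin receptor TrkB, which the study used to label A-fibre LTMR and not only the A-delta subtype. It had a log2 fold change of -0.18 (unadjusted p of 0.00611, adjusted p of 1.00, edgeR). *Cadps2* and *Shox2* had log2 fold changes of 0.40 and 0.30 (unadjusted p of 0.000642 and 0.00143, adjusted p of 0.561 and 0.784, edgeR), and *Mafa* had 0.34 (unadjusted p of 0.0452, adjusted p of 1.00, edgeR). From bulk RNA alone, fewer cells of a subtype and less RNA per cell cannot be told apart. By staining at E18.5, the study reported no difference between *WD1* cKO and control DRG in the number of Islet1-positive neurons. It reported none in general markers of the main neuron subtypes either. Among TrkB-positive neurons of *WD1* cKO DRG, however, the study reported a lower share with calretinin and a higher share with Shox2 protein, among other changes.

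The members were then set among the other genes of cholinergic signalling, in 7 lists of 47 genes in all. Of these, 39 passed the filter, and 0 of 39 had an adjusted p under 0.05 or an unadjusted p under 0.05 in edgeR and also in DESeq2, beside the 4.50% of all genes in edgeR. Log2 fold changes were negative for 25 and positive for 14, with a median of -0.029, and groups did not overlap for 0 of 39. Under the other settings 0 to 3 genes had an unadjusted p under 0.05, the most with the replicate number as a block, and 0 had an adjusted p under 0.05. With that block 1241 of all 17490 genes tested had an unadjusted p under 0.05, against 787 in the main fit (edgeR).

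RNA of the enzyme that makes acetylcholine was barely detectable. *Chat*, which makes acetylcholine, had 0, 0, 1, 1 and 2 reads in control replicates 1 to 5 and 1, 3, 2, 1 and 2 reads in the *WD1* cKO replicates. *Slc18a3*, which loads it into vesicles, had 2, 3, 3, 2 and 21 reads in the control and 7, 10, 7, 2 and 14 reads in the *WD1* cKO replicates. Neither gene passed the filter. *Slc5a7*, the high-affinity choline transporter, was in contrast clearly present, at 16.2 ± 0.622 CPM (SD, n = 5) in control and 17.1 ± 1.10 CPM (SD, n = 5) in *WD1* cKO embryos (log2 fold change 0.08, adjusted p of 1.00, edgeR). *Ache* was thus abundant in a tissue in which the synthetic enzyme had at most 3 reads per library. Of the 9 genes of general choline supply, 8 were tested and none passed, and *Slc44a4* was too low. *Slc44a2* and *Slc44a1*, choline transporters of the cell surface, and *Pcyt1b* and *Pcyt1a*, which serve phosphatidylcholine synthesis, were the most abundant and had log2 fold changes from -0.0018 to 0.038.

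Receptors for acetylcholine were present as RNA in both families. All 5 muscarinic receptor genes were tested, with log2 fold changes from -0.17 to 0.20, and none passed. *Chrm2* was at 34.4 ± 4.88 CPM (SD, n = 5) in control and 38.0 ± 6.86 CPM (SD, n = 5) in *WD1* cKO embryos, and *Chrm4* at 16.8 ± 2.22 and 15.9 ± 1.41 CPM (SD, n = 5). Both receptors couple to inhibitory G proteins. Per kb of exon, *Chrm4* was the highest muscarinic gene at 11.7 CPM per kb in control embryos, above *Bche* and below *Ache*.

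Of 11 neuronal nicotinic subunit genes, 8 were tested and none passed, while *Chrna2*, *Chrna9* and *Chrna10* were too low. *Chrnb2* led with 92.8 ± 7.42 CPM (SD, n = 5) in control and 88.7 ± 2.99 CPM (SD, n = 5) in *WD1* cKO embryos, followed by *Chrna7* with 26.6 ± 2.90 and 26.1 ± 2.11 CPM (SD, n = 5). The extremes of the group, named after their values were seen, were *Chrnb4* with a log2 fold change of -0.31 and *Chrnb3* with 0.45 (unadjusted p of 0.228 and 0.0675, edgeR). *Chrna3* stood at 18.7 CPM in control replicate 5, against 8.03 to 10.5 CPM in the other 4 controls. This is the library with the highest *Colq* and *Slc18a3*, and whether the values are linked was not tested. Of the 5 muscle nicotinic subunit genes, 4 were tested and none passed, and *Chrnd* was too low.

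The endplate and basal lamina, where ColQ attaches at the neuromuscular junction, were followed with a list of 9 genes, all tested, of which none passed. *Hspg2*, which encodes perlecan, the heparan sulfate proteoglycan that binds ColQ, was at 468 ± 63.9 CPM (SD, n = 5) in control and 530 ± 65.8 CPM (SD, n = 5) in *WD1* cKO embryos (log2 fold change 0.18, unadjusted p of 0.101, edgeR). *Musk*, the receptor kinase that also binds ColQ, was at 4.39 ± 0.620 and 4.09 ± 0.907 CPM (SD, n = 5). *Agrn*, which encodes agrin, was the most abundant at 932 ± 79.0 and 880 ± 22.9 CPM (SD, n = 5), with a log2 fold change of -0.08. Of the 5 genes with a cholinesterase-like domain but no cholinesterase role, 4 were tested and none passed, and *Cel* was too low. *Nlgn2*, a synaptic adhesion protein of inhibitory synapses, was the most abundant of them with 210 ± 9.32 and 201 ± 6.08 CPM (SD, n = 5).

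**Figure D4:**
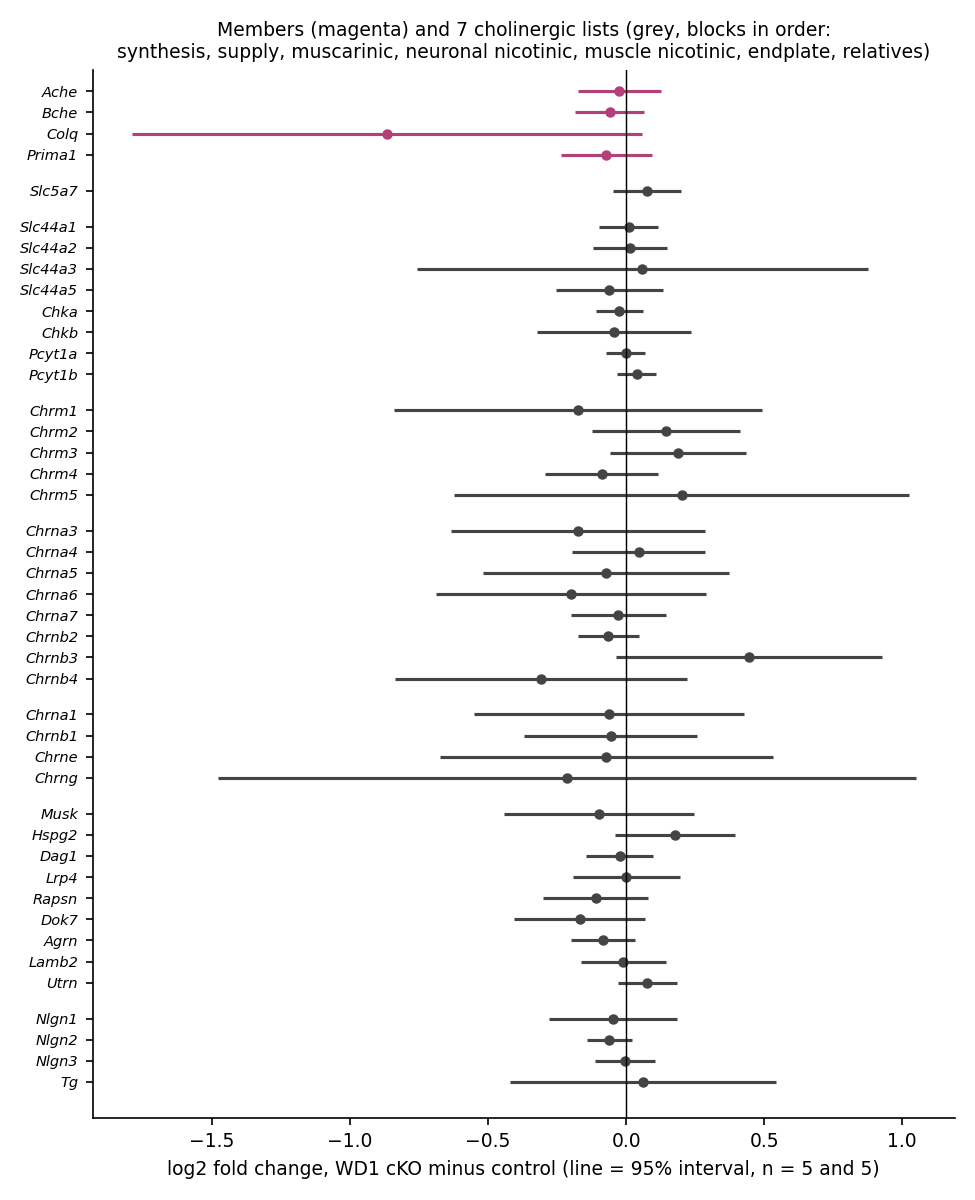
Log2 fold change (*WD1* cKO minus control) of the 4 members (magenta) and of the 39 tested genes of 7 cholinergic lists (grey), with 95% intervals from edgeR and 5 libraries per group. All intervals include 0, and that of *Colq* is the widest of the members.

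DRG were collected whole, so the level of each member was related to the summed level of 6 tissue lists over the 10 libraries, 24 relations in all. In DRG the neuronal genes were abundant in every library, with a summed level of 7199 to 7760 CPM for 8 pan-neuronal genes such as *Prph* and *Tubb3*, and 1460 to 1747 CPM for 7 glial genes such as *Apoe* and *Fabp7*. One relation passed an adjusted p under 0.05. *Bche* was lower where connective tissue genes (*Col3a1*, *Col1a2*, *Col1a1*, *Dcn* and others) were higher, with Pearson's r of -0.911 (permutation p = 0.0004, adjusted 0.0096). Spearman's rho was -0.794 (permutation p = 0.00858, adjusted 0.0872), which did not pass. Without control replicate 3 and *WD1* cKO replicate 3, the 2 libraries farthest from the median, r was -0.815, and after centring on the group means r was -0.905 (permutation p = 0.00151, adjusted 0.0362). Connective tissue genes make up a share of all reads in CPM, and the part of that share in the relation was not tested.

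The other members gave no relation that passed. *Ache* came nearest, with the glial level (r = 0.759, permutation p = 0.0107, adjusted 0.0642, rho = 0.709) and with the level of red blood cell genes (r = -0.798, permutation p = 0.00964, adjusted 0.0642, rho = -0.83). Both *Ache* and blood differed by replicate number. Over numbers 4 and 5 of both groups blood genes summed to 134 to 206 CPM and *Ache* was at 174 to 192 CPM, and over numbers 1 to 3 they were at 417 to 2080 and 152 to 174 CPM. Among control replicates 1 to 3, *Ache* also rose from 152 to 173 CPM as blood fell from 2080 to 894 CPM. *WD1* cKO replicates 1 to 3 showed no such order. The part of the split by number in the relation was not tested. *Bche* had r = -0.14 with the glial level and 0.768 with the pan-neuronal level (permutation p = 0.00903, adjusted 0.0642), and the latter was 0.447 without the same pair of libraries. Blood genes summed to 134 to 2080 CPM in control and to 160 to 950 CPM in *WD1* cKO embryos. *Prima1* had its highest r, 0.51, with blood and reached 0.487 with the pan-neuronal level (permutation p = 0.131 and 0.153).

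**Figure D5:**
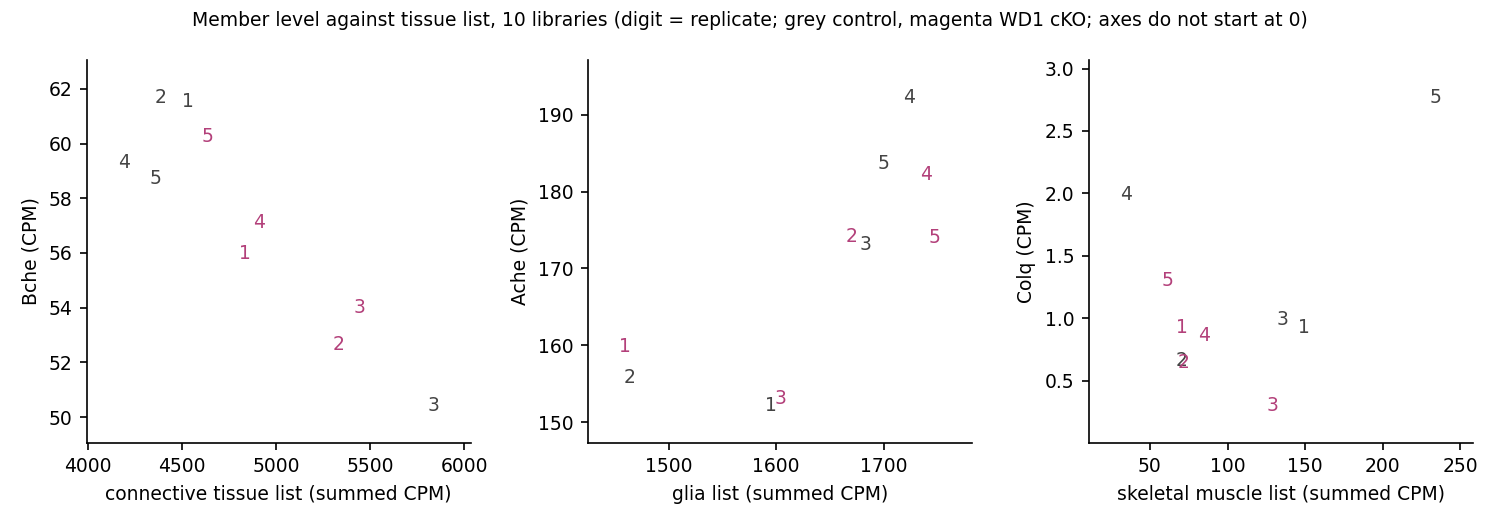
Level of a member (CPM) against the summed CPM of a tissue list in the 10 libraries, where each digit is a replicate number, grey is control and magenta *WD1* cKO, and the axes do not start at 0. *Bche* falls from about 62 to 50 CPM as connective tissue genes rise, the highest *Ache* values sit at high glial levels, and *Colq* falls with muscle RNA in *WD1* cKO but not in control libraries. The fall of *Colq* in *WD1* cKO libraries is not particular to muscle, since r was -0.917 with muscle and -0.919 with connective tissue (latter not shown).

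No pair of members had a relation over the 10 libraries that passed. Of the 6 pairs, the closest was *Ache* with *Colq* (r = 0.702, permutation p = 0.0193, adjusted 0.116, rho = 0.527), with r = 0.58 without the 2 libraries farthest from the median. Each enzyme and its membrane anchor had no relation that passed, with r of -0.312 for *Ache* with *Prima1* and 0.244 for *Bche* with *Prima1* (adjusted p of 0.632 for both, permutation test). *Ache* and *Bche* themselves had r = -0.0795.

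As a description, the genes whose log2 level over the 10 libraries was most like that of each member were listed by Pearson's r among 15340 tested genes with a mean of at least 1 CPM. For *Ache* these were *Syngr3*, a synaptic vesicle protein (r = 0.965), *Dnm1*, the dynamin of synaptic vesicle endocytosis (0.955), *Znfx1* (0.955), *Slc36a1* (0.952) and *Tmem151a* (0.951). For *Bche* they were *Mum1* (0.969), *Ndst3*, a heparan sulfate-modifying enzyme (0.947), *Ptpn4* (0.939), *Rnf207* (0.937) and *Mfsd9* (0.936). *Colq* was most like *Amigo3* (0.953), *Slc6a17*, a vesicular amino acid transporter (0.949), *Paqr7* (0.941) and *Rab11fip5* (0.933). *Prima1* was most like *Tubb3*, the neuronal tubulin (0.902), *E430018J23Rik* (0.89), *Fbxl12* (0.882), *Cdc34* (0.868) and *Nxt1* (0.868). No gene was shared between these sets. These are the highest of many values and carry no test.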

How the data were processed

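The authors sequenced stranded mRNA libraries of whole DRG at E18.5, 5 control and 5 *WD1* cKO. According to the submitters' processing notes, bcl2fastq 2.20.0.422, STAR 2.7.8a and featureCounts 2.0.1 were used with GRCm39. The authors deposited raw counts per gene without normalization, 20465132 to 27528784 in total per control and 19757596 to 34796562 per *WD1* cKO library, so that 10 counts were 0.289 to 0.508 CPM. The strand setting, the treatment of multi-mapping reads and the litters are not given in the sources used here, so reads of overlapping genes are uncertain and p-values measure the spread between these samples. The mice were of mixed C57Bl/6J and CD1 background.

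Counts were analysed with edgeR 4.0.16 in R 4.3.3 (at least 10 counts in at least 5 libraries, TMM, quasi-likelihood test without block or covariate, Benjamini-Hochberg over 17490 genes). Alternatives were DESeq2 1.42.0 (size factors and Wald test), no filter, the replicate number as a block, a muscle covariate, a term for replicate numbers 1 to 3 against 4 and 5, and each library left out. Subsets by replicate number were added after the data were seen. Exact tests enumerated all 252 splits of log2 CPM (prior count 1), and correlations used 100000 permutations (SciPy 1.17.1). Symbols, matched for 52081 of 55414 identifiers, chromosomes and exon lengths are from the GENCODE annotation of GRCm38, and promoters from RefSeq, which held 3 of the 4 members. No pair of libraries within a group agreed within sampling noise. The edgeR step was tested on simulated data.

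Named genes are the members, *Dach1*, genes overlapping a member, list genes called, too low to test or among the 4 most abundant, and the 5 genes most like each member, of which 1 is not reported here. The members and lists were chosen with earlier results of these data known.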

Additional observations from a re-analysis of the deposited data

Results flagged for a closer look

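In 6 of 38 sets of 5 values a library was set apart from the rest by more than 0.71 of the whole range, a gap that chance gives in about 1 of 20. *Bche* was 50.4 CPM in control replicate 3 and 58.7 to 61.7 CPM in the other controls. *Prima1* was 6.88 CPM in *WD1* cKO replicate 2 and 5.90 to 6.18 CPM in the 4 others of its group. Control replicate 3 also stood apart in the summed level of pan-neuronal genes (7199 CPM against 7604 to 7760 CPM), connective tissue genes (5835 CPM against 4191 to 4533 CPM) and spinal cord genes (11.96 CPM against 0.110 to 0.484 CPM). The neuronal nicotinic subunit genes summed to 186 CPM in control replicate 5 and to 144 to 151 CPM in the other controls.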

How the results depend on the processing

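No member had an adjusted p under 0.05 under any of the 18 other settings, and *Bche*, *Prima1* and *Colq* kept a negative sign in all of them. *Ache*, at -0.02 on the log2 scale, turned to 0.0212 without control replicate 4, 0.00198 without control replicate 5, 0.00835 without *WD1* cKO replicate 3, and 0.0163 over replicate numbers 1 to 3. With each library left out in turn, log2 fold changes ran from -0.064 to 0.021 for *Ache*, -0.11 to -0.037 for *Bche*, -1.15 to -0.52 for *Colq* and -0.11 to -0.032 for *Prima1*. The count of genes with an adjusted p under 0.05 ran from 3 to 6 and that past the study's cut-off from 52 to 96.

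Genes with an adjusted p under 0.05 numbered 7 in edgeR, 19 with DESeq2's Wald test, 11 with a term for replicate numbers 1 to 3 against 4 and 5, and 3 with the muscle covariate, over numbers 1 to 3 alone and over numbers 4 and 5 alone. Genes past the study's cut-off numbered 67, 128 without the filter, 117 with that term and 142 over numbers 4 and 5 alone. The cause was not tested. The replicate numbers share no stated origin, and deviations of same-numbered libraries correlated by 0.0417 to 0.393, and 3 of 5 controls were most like the *WD1* cKO library of their own number. With the replicate number as a block, 133 genes passed the study's cut-off and *Colq* had a log2 fold change of -0.83 (unadjusted p of 0.00795, adjusted p of 0.59, edgeR). Of the 39 other cholinergic genes, 3 had an unadjusted p under 0.05 with the block, beside 0 without. Over all 17490 genes tested, 1241 had an unadjusted p under 0.05 with the block and 787 without (edgeR). One relation with a tissue list passed with and without centring. *Colq* had 9 to 63 reads per library, the fewest of the members, and a coefficient of variation of 60.4% in control and 45.7% in *WD1* cKO libraries.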
